A study of Mus musculus with 4 samples.

Results

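The genes described here are the mouse collagen genes other than the main chains of fibrillar types I, III and V. They were taken as every symbol of the form Col, number, a, number in the deposited gene table, without Col1a1, Col1a2, Col3a1, Col5a1 and Col5a2, that had 20 or more unique molecular identifiers (UMIs, which count captured transcripts) over the 4 liver sections. Of 39 such symbols, 31 reached that minimum, out of 19465 genes in the matrices. The 8 left out were Col9a1, Col19a1, Col22a1, Col10a1, Col17a1, Col2a1, Col11a1 and Col26a1. The 31 held 164202 UMIs, or 0.0722% of all UMIs, and the rule uses no other measured value than that minimum. They fall into type IV (6 genes), the basement membrane zone (Col7a1, Col15a1 and Col18a1), type VI (6 genes), FACITs (collagens with interrupted helices that sit on fibrils, 6 genes), short-chain network collagens (Col8a1 and Col8a2), transmembrane collagens (Col13a1, Col23a1 and Col25a1), minor fibrillar chains that the rule keeps (Col5a3, Col11a2, Col24a1 and Col27a1) and Col28a1.

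Transcripts were measured with Visium, an assay that assigns RNA to barcoded positions of a tissue section. It was run on formalin-fixed, paraffin-embedded livers of 4 mice, labelled male and aged 5 months. One section (n = 1, Hk2-deleted fibrotic) was of a PDGFRBcreERT2/Hk2fl/fl mouse given carbon tetrachloride (CCl4), a hepatotoxin. Fibrotic 1 and fibrotic 2 (n = 2) came from HK2fl/fl littermates given CCl4, and the healthy section (n = 1) from one given olive oil. All 4 mice received tamoxifen at 75 mg/kg for 5 days and a wait of 2 weeks, so the controls differ from the deleted mouse in the Cre transgene. CCl4 was given at 1 µL/g, 2 times a week, for 6 weeks in the series' design text and for 4 or 6 weeks in the sample protocol. Pdgfrb, whose promoter drives the Cre, is expressed by stellate cells of the liver and by other mural cells, so Hk2 (hexokinase 2, an enzyme of glycolysis) can remain in all other cells. A p-value across these sections rests on the difference between the fibrotic pair, because the other groups have 1 section each.

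The sections had 2577 to 4134 spots, 40585039 to 67479047 UMIs and a median of 13665 to 15588 UMIs per spot. Levels are given in CPM, a gene's UMIs per 1000000 UMIs of the same section or spot set. The probe set is not given in the sources used here, so UMI ratios and shares between genes are compared only from section to section and do not rank the genes by amount of transcript. Hk2 had 3.50 CPM in the Hk2-deleted section, 4.88 CPM in fibrotic 1, 3.94 CPM in fibrotic 2 and 1.85 CPM in the healthy section. Fibrotic 1 stood apart from its label: Y-linked Eif2s3y had 63.2 CPM in the Hk2-deleted section, 0.578 CPM in fibrotic 1, 62.1 CPM in fibrotic 2 and 69.9 CPM in the healthy section. Results that rest on fibrotic 1 are therefore also given with fibrotic 2 and the Hk2-deleted section as the CCl4 group, which was chosen after seeing the data. Spots that held or touched a UMI of the mesothelial genes Msln or Upk3b, called surface spots, made up 31.0% of the Hk2-deleted section, 33.3% of fibrotic 1, 2.29% of fibrotic 2 and 12.8% of the healthy section. In whole sections, more cells of a type and more RNA per cell cannot be told apart.

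Collagens are trimers of alpha chains, and each type builds a different structure. Type IV chains form the sheet of basement membranes, which in liver lie under bile ducts and larger vessels but are sparse along normal sinusoids. Type VI chains form beaded microfibrils between fibrils and cells, FACITs coat fibrils, and types XV and XVIII carry heparan or chondroitin sulfate chains beside basement membranes. In fibrosis, activated stellate cells and portal fibroblasts lay down matrix that includes these collagens beside types I and III. Type XVIII differs in source, since hepatocytes also make it.

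The promoters of 4 of these genes are printed because their transcripts mark the contrasts described below: the basement membrane pair Col4a1 and Col4a2, which share a promoter region, the type VI chain Col6a1, and Col18a1. Each is the RefSeq window of 300 bases on GRCm38.p6, from 250 bases before a start of the gene to 50 after it, 5′ to 3′ on the gene's strand. For Col4a1 that start lies inside the gene, whose outermost start is at position 11312889 of chromosome 8. Capitals mark GC boxes (GGGCGG or CCGCCC) and CCAAT boxes (CCAAT or ATTGG), found on both strands. The Col4a1 window lies at chr8:11312777-11313076 (minus strand), Col4a2 at chr8:11312555-11312854 (plus strand), Col6a1 at chr10:76725995-76726294 (minus strand) and Col18a1 at chr10:77166481-77166780 (minus strand).
Col4a1: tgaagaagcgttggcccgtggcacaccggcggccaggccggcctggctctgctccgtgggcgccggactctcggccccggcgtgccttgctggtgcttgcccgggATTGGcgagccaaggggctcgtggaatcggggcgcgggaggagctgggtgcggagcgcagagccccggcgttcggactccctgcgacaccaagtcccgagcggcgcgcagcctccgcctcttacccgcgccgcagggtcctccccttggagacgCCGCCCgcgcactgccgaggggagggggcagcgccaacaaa
Col4a2: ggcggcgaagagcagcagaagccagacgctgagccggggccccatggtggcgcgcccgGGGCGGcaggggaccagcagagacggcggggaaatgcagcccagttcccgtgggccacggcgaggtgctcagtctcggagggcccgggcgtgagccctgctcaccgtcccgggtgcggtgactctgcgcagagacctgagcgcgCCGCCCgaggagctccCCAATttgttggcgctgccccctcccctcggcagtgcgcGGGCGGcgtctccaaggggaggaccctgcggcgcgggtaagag
Col6a1: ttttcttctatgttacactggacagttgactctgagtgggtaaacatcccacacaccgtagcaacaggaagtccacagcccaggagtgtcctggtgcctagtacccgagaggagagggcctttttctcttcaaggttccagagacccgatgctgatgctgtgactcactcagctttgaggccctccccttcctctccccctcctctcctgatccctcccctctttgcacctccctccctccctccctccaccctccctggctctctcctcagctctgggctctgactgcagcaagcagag
Col18a1: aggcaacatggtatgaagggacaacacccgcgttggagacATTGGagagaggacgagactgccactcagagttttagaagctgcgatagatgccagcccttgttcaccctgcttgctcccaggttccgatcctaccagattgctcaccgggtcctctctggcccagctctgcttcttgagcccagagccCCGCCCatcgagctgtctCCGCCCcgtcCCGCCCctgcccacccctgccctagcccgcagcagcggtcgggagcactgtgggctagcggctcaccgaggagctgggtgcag

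The Col4a1 and Col4a2 windows lie on opposite strands and share 78 bases, at positions 11312777 to 11312854 of chromosome 8. A CCAAT box and a GC box fall in each, and their GC content was 74.0% for Col4a1 and 73.7% for Col4a2, against a median of 52.7% over all RefSeq promoter windows. The Col6a1 window held neither box. The Col18a1 window printed held 3 GC boxes and 1 CCAAT box, while a second RefSeq start of Col18a1 at chr10:77113656-77113955 (minus strand) held none. Of the 31 genes, 27 matched the promoter table with 29 windows, and Col4a3, Col9a3, Col12a1 and Col14a1 had no entry there. A GC box occurred in 20 of the 29 windows, against 35.7% of all 32851 windows of this length. A CCAAT box occurred in 9 windows (37.4% of all windows) and a TATA box (TATAAA or TTTATA) in 2 (13.6% of all windows). Such matches describe the letters of a window and not the binding of a factor.

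Type VI had the largest fold difference in summed level between CCl4-treated and healthy sections among the 4 classes compared, and type IV came next. Of 30 genes tested in whole sections, 16 were higher in the fibrotic sections than in the healthy section and none was lower at an adjusted p under 0.05 (edgeR quasi-likelihood test with Benjamini-Hochberg adjustment over all genes). Across all 14125 genes tested, 9.64% were called higher and 4.01% lower. The median log2 fold change was 1.46 over the 30 genes and 0.0042 over all genes tested. The minimum of 20 UMIs was summed over CCl4-treated and healthy sections, so a gene could reach it through the CCl4-treated ones alone. Of the 16, Col9a2 (0 UMIs), Col4a6 (4), Col6a5 (10), Col12a1 (13) and Col6a6 (14) were below 20 in the healthy section. The other called genes had 24 or more there. The set of all genes tested was not chosen by this minimum, so it is not a like measure for the count and median. With fibrotic 2 and the Hk2-deleted section as the CCl4 group, 12 of the 16 were called higher and Col13a1 was called lower.

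Summed over its 6 genes, type VI had 169 CPM in the Hk2-deleted section (95% Poisson interval 166 to 172), 232 CPM in fibrotic 1 (229 to 236), 123 CPM in fibrotic 2 (119 to 126) and 24.3 CPM in the healthy section (23.0 to 25.7). These intervals cover counting error only. The 3 CCl4-treated sections were 6.95, 9.55 and 5.04 times the healthy section in that order. Their own range was wide, with fibrotic 2 lowest and fibrotic 1 highest, yet all 3 lay above the healthy section.

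Col6a1, a chain of the main type VI heterotrimer, had 48.3 CPM in the Hk2-deleted section, 61.3 CPM in fibrotic 1, 34.8 CPM in fibrotic 2 and 7.05 CPM in the healthy section. Its fitted log2 fold change, fibrotic over healthy, was 2.41 ± 0.26 (SE, adjusted p = 2.71e-06). Col6a2 and Col6a3, its partners in that trimer, were close to it: Col6a2 changed by 2.36 ± 0.27 (adjusted p = 6.99e-06) and Col6a3 by 2.60 ± 0.29 (adjusted p = 4.37e-06) on the log2 scale. The UMI ratio of Col6a2 to Col6a1 was nearly level over the sections, at 1.15 in the Hk2-deleted section, 1.15 in fibrotic 1, 1.09 in fibrotic 2 and 1.17 in the healthy section.

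With fewer UMIs, Col6a5 and Col6a6, chains that can replace Col6a3 in the trimer, showed the largest fitted changes of the class. Col6a6 had 4.68 CPM in the Hk2-deleted section, 8.40 CPM in fibrotic 1, 2.39 CPM in fibrotic 2 and 0.259 CPM in the healthy section. Fibrotic 1 stood well above fibrotic 2, and neither overlapped the healthy section. The log2 fold change was 4.00 ± 0.61 for Col6a6 (adjusted p = 0.000137) and 3.82 ± 0.53 for Col6a5 (adjusted p = 4.82e-05). Without fibrotic 1 and without fibrotic 2 in turn, Col6a6 changed by 2.96 and 4.58, values with no test. Col6a4, the remaining chain, had 0.230, 0.519 and 0.246 CPM in the CCl4-treated sections and 0.111 CPM in the healthy section and was not called.

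Type IV rose in the fibrotic sections through 5 of its 6 genes. Col4a1, which with Col4a2 forms the type IV trimer found in nearly all basement membranes, had 65.9 CPM in the Hk2-deleted section, 84.8 CPM in fibrotic 1, 57.3 CPM in fibrotic 2 and 20.9 CPM in the healthy section. Col4a2 had 77.2 CPM in the Hk2-deleted section, 88.7 CPM in fibrotic 1, 68.8 CPM in fibrotic 2 and 22.4 CPM in the healthy section. For both, the healthy section was lowest and fibrotic 1 highest, with no overlap between fibrotic and healthy. The log2 fold change was 1.42 ± 0.23 for Col4a1 (adjusted p = 0.000331) and 1.47 ± 0.23 for Col4a2 (adjusted p = 0.000179).

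For this pair with facing promoters, the UMI ratio of Col4a2 to Col4a1 was 1.17 in the Hk2-deleted section, 1.05 in fibrotic 1, 1.20 in fibrotic 2 and 1.07 in the healthy section. The other type IV chains are known from more restricted membranes, such as those of the kidney glomerulus and of smooth muscle. Among them Col4a5 rose by 2.50 ± 0.45 (adjusted p = 0.000757), Col4a6 by 3.35 ± 0.83 (adjusted p = 0.00956) and Col4a3 by 2.14 ± 0.56 (adjusted p = 0.0146). Col4a4 had a log2 fold change of 0.47 ± 0.58 and was not called. Col4a6 rested on 4 UMIs in the healthy section. The calls of Col4a3 and Col4a6 were lost with fibrotic 2 and the Hk2-deleted section as the CCl4 group. That of Col4a3 was also lost with DESeq2 and with all 3 CCl4-treated sections as one group. Col4a5 and Col4a6 are X-linked, and the part of the Y-linked difference of fibrotic 1 in their values was not tested.

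The basement membrane zone collagens did not move as a class. Col15a1, a proteoglycan-like collagen that links basement membranes to the matrix below, had 15.7 CPM in the Hk2-deleted section, 17.5 CPM in fibrotic 1, 10.4 CPM in fibrotic 2 and 3.50 CPM in the healthy section. It rose by 1.65 ± 0.26 on the log2 scale (adjusted p = 0.000213). Col18a1, whose carboxyl end is the source of endostatin, had 296 CPM in the Hk2-deleted section, 229 CPM in fibrotic 1, 239 CPM in fibrotic 2 and 188 CPM in the healthy section. The raw level was lowest in the healthy section, but the scaled log2 fold change was -0.01 ± 0.28 (interval -0.61 to 0.58, adjusted p = 0.98). With library size alone in place of TMM scaling, Col18a1 had 0.31 while the median of all genes was itself at 0.34. Col7a1, the anchoring fibril collagen, was below 0.3 CPM in every section and was not called.

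Among the FACITs, 4 of 6 genes rose. Col14a1, which binds decorin-bearing fibrils, had 154 CPM in the Hk2-deleted section, 189 CPM in fibrotic 1, 169 CPM in fibrotic 2 and 79.2 CPM in the healthy section. The fibrotic sections did not overlap the healthy one, and the log2 fold change was 0.84 ± 0.26 (adjusted p = 0.0351). This call was lost with fibrotic 2 and the Hk2-deleted section as the CCl4 group. Col12a1 rose by 2.79 ± 0.58 (adjusted p = 0.00266) and Col16a1 by 1.45 ± 0.34 (adjusted p = 0.00745). Col9a2, a chain of cartilage type IX, had 27, 37 and 4 UMIs in the CCl4-treated sections, in the order above, and 0 in the healthy section. With a floor of 3 UMIs in the healthy section, the fibrotic mean was at least 5.83-fold higher (adjusted p = 0.0348), and the call was lost without surface spots, with all 3 CCl4-treated sections as one group and with fibrotic 2 and the Hk2-deleted section as the CCl4 group. That bound rests on fibrotic 1, which was 9.88 times the floor, while fibrotic 2 was 1.78 times the floor on 4 UMIs.

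Of the remaining genes, Col8a1, a short-chain collagen of vessel walls, rose by 1.49 ± 0.44 (adjusted p = 0.0283), a call lost with DESeq2 and with library size alone. Col13a1, a transmembrane collagen of cell adhesion sites, had 11.6 CPM in the Hk2-deleted section, 14.9 CPM in fibrotic 1, 10.3 CPM in fibrotic 2 and 15.1 CPM in the healthy section. Its log2 fold change was -0.61 ± 0.20 and its adjusted p was 0.0556, so that it was not called. Col27a1, a minor fibrillar chain of cartilage, had -0.19 ± 0.20 and was not called. None of the 4 minor fibrillar chains passed the test.

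The makeup of this set of transcripts shifted with the levels. Type VI supplied 20.3% of the UMIs of the 31 genes in the Hk2-deleted section, 25.6% in fibrotic 1, 17.4% in fibrotic 2 and 6.53% in the healthy section. The basement membrane zone genes, mostly Col18a1, supplied 37.5% in the Hk2-deleted section, 27.3% in fibrotic 1, 35.4% in fibrotic 2 and 51.5% in the healthy section. Col1a1, Col1a2 and Col3a1 together were 16.3, 24.9 and 11.2 times the healthy section in the same order of sections, against 3.40, 4.16 and 2.92 times for type IV and 1.99, 2.46 and 2.14 times for FACITs.

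**Figure D1:**
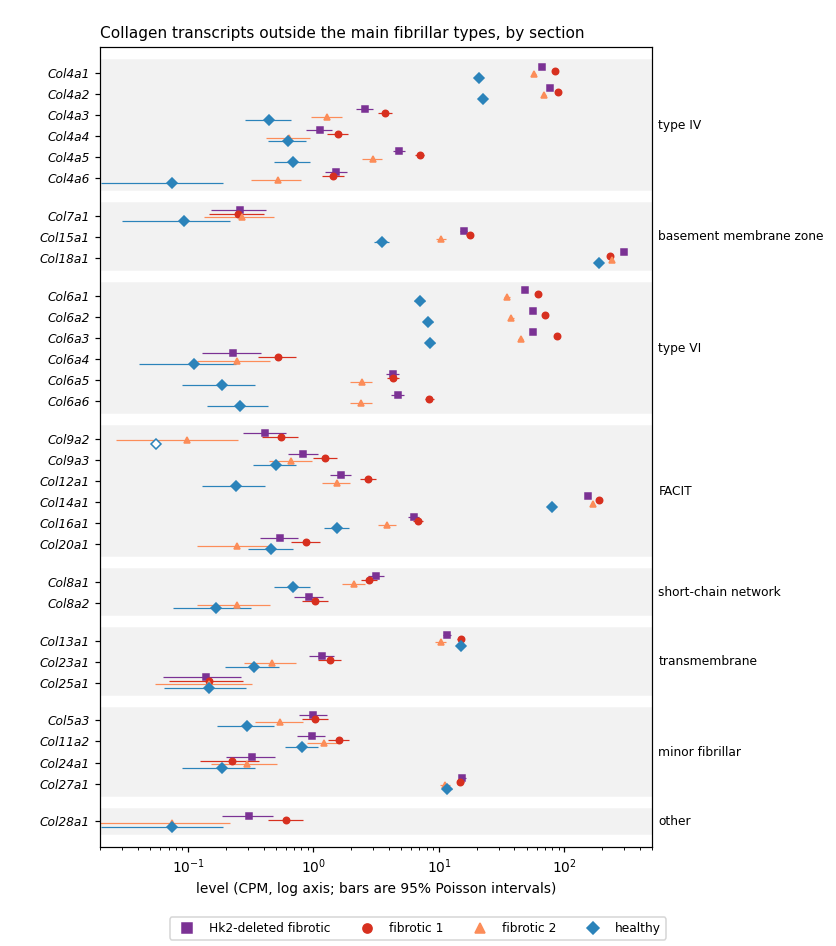
Levels of the 31 collagen genes (CPM, log axis) in the 4 sections, grouped by class, with exact 95% Poisson intervals that cover counting error only and an open symbol at the floor of 3 UMIs for Col9a2 at 0. The healthy section is lowest for Col4a1, Col4a2, Col6a1, Col6a2 and Col6a3, while Col18a1 and Col13a1 lie close together in all sections.

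**Figure D2:**
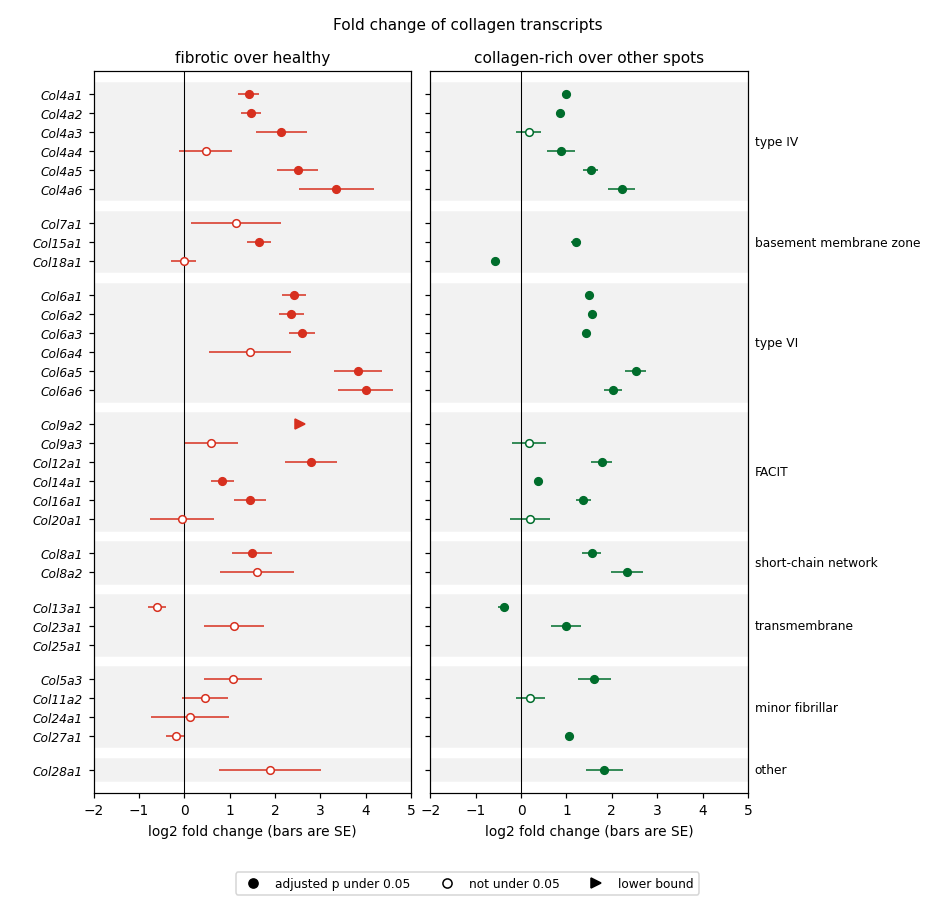
Fitted log2 fold change (bars are SE) of each gene tested, fibrotic over healthy sections on the left and collagen-rich over other spots of the 3 CCl4-treated sections on the right. Filled points passed an adjusted p of 0.05, and the triangle is the lower bound for Col9a2 (2.54); Col18a1 lies near 0 on the left and at -0.57 on the right.

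Genes that assemble or bind these collagens rose in part. Of 17 laminins and other basement membrane partners, 9 rose in the fibrotic sections and none fell, led by Lama2 (a laminin chain, 1.94 ± 0.27), Sparc (a type IV collagen binder, 1.53 ± 0.30) and Nid1 (nidogen, which joins laminin to type IV, 1.23 ± 0.20). Of 28 enzymes and chaperones of collagen synthesis, 10 rose and none fell, led by the crosslinking oxidases Lox (3.17 ± 0.79) and Loxl1 (3.08 ± 0.40) and by the propeptide protease Adamts2 (2.19 ± 0.24). Of 13 collagen receptors, 5 rose and none fell, led by Mrc2 (an endocytic collagen receptor, 2.84 ± 0.31), Itga2 (2.32 ± 0.69) and Antxr1 (a type VI binder, 2.00 ± 0.32). Median log2 changes were 0.72 for the basement membrane partners, 0.40 for the synthesis genes and 1.02 for the receptors, against 0.0042 over all genes.

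Markers of several cell types moved with the collagens in the same contrast. Of the marker lists, 6 of 8 portal fibroblast genes, 3 of 6 cholangiocyte genes, 3 of 5 macrophage genes, 2 of 7 stellate cell genes, 1 of 6 mesothelial genes and 1 of 5 smooth muscle genes rose in the fibrotic sections. The summed portal fibroblast level was 152 CPM in the Hk2-deleted section, 221 CPM in fibrotic 1, 96.9 CPM in fibrotic 2 and 29.7 CPM in the healthy section. Their part in the collagen differences was not tested.

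The Hk2-deleted fibrotic section showed no collagen difference that passed the test against the fibrotic pair. Of 30 genes tested, 0 were called in either direction by edgeR, 0 had an unadjusted p under 0.05 and 0 were called by DESeq2, while 0.142% of all genes were called higher and 0.085% lower. The median log2 fold change, Hk2-deleted over fibrotic, was -0.02 over the 30 genes and -0.0081 over all genes. The intervals show what size could be seen. Col6a1 had -0.02 (interval -0.49 to 0.44), Col4a1 -0.15 (-0.61 to 0.31), Col14a1 -0.27 (-0.80 to 0.25) and Col18a1 0.28 (-0.31 to 0.87). Col6a3 had -0.27 (-0.80 to 0.26), but 0.16 without fibrotic 1 and -0.60 without fibrotic 2. For most genes with many UMIs the whole Hk2-deleted section lay between the fibrotic pair. Col6a1, for example, had 48.3 CPM there against 61.3 CPM in fibrotic 1 and 34.8 CPM in fibrotic 2. Col18a1 lay above both and Col14a1 below both. Without surface spots, whose share differed between the sections, Col6a1 still lay between, at 36.8 CPM against 52.6 and 34.7 CPM. Col4a1 (53.8 CPM against 75.4 and 57.0 CPM) and Col4a2 (66.7 CPM against 81.0 and 68.7 CPM) then lay below both.

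By zone score, type IV, type VI and FACIT transcripts were denser in spots scored as pericentral after CCl4, while the summed basement membrane zone genes were not. Spots were scored within each section by 9 pericentral and 12 periportal hepatocyte genes and cut into 3 equal parts, and the pericentral part was set against the periportal part. The parts are named by this score alone, and the place of a spot in the lobule was not checked on images. Type VI had 286 CPM in the pericentral and 99.7 CPM in the periportal part of the Hk2-deleted section, 328 and 132 CPM in fibrotic 1, 206 and 63.7 CPM in fibrotic 2, and 23.6 and 25.9 CPM in the healthy section. The pericentral side was higher in the 3 CCl4-treated sections and slightly lower in the healthy one. Type IV followed the same pattern, with 216 against 117 CPM, 237 against 133 CPM and 164 against 101 CPM in the CCl4-treated sections and 44.0 against 44.4 CPM in the healthy section.

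FACITs had 207 CPM pericentrally and 124 CPM periportally in the Hk2-deleted section, 231 and 153 CPM in fibrotic 1, 226 and 122 CPM in fibrotic 2, and 73.4 and 82.5 CPM in the healthy section. The basement membrane zone genes were nearly level, with 300 against 315 CPM in the Hk2-deleted section, 243 against 251 CPM in fibrotic 1, 231 against 258 CPM in fibrotic 2 and 196 against 190 CPM in the healthy section. Gene by gene, 21 of the 31 had a higher raw CPM on the pericentral side in all 3 CCl4-treated sections and 3 a lower one. In the healthy section 14 were higher and 16 lower, which is not a like measure, since only 1 section is counted. Low counts weigh equally with high ones in these numbers, and the shares over all genes were not counted. With library size alone, the median log2 zone difference of all genes was itself 0.21 over the 4 sections. Raw CPM thus leaned to the pericentral side for genes in general.

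**Figure D3:**
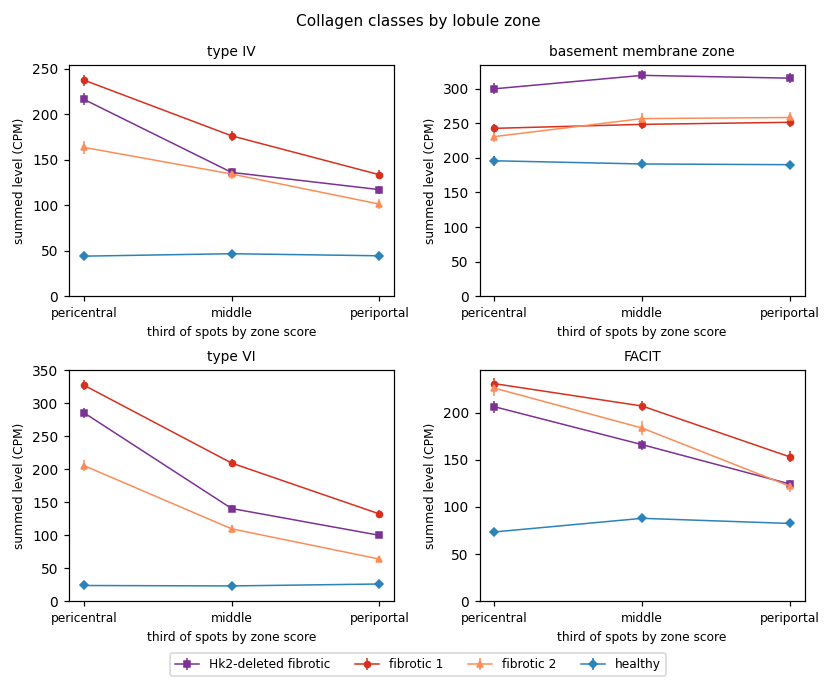
Summed level of 4 collagen classes (CPM) in the pericentral, middle and periportal parts of each section, with 95% Poisson intervals. Type IV, type VI and FACITs slope down from the pericentral to the periportal part in the 3 CCl4-treated sections (type VI 286 to 99.7 CPM in the Hk2-deleted one), and the healthy section is nearly flat.

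Across all 4 sections, with section as a block, 7 of 24 genes tested were higher pericentrally and none was lower, against 5.85% higher and 5.11% lower among all genes. The median log2 fold change was 0.43 over the 24 genes and 0.0001 over all genes. The 7 were Col6a1 (1.04 ± 0.22, adjusted p = 0.0274), Col6a2 (0.93 ± 0.23, adjusted p = 0.0449), Col6a3 (1.01 ± 0.21, adjusted p = 0.0252), Col6a5 (1.77 ± 0.27, adjusted p = 0.00866), Col6a6 (1.39 ± 0.15, adjusted p = 0.00276), Col12a1 (1.88 ± 0.30, adjusted p = 0.0107) and Col27a1 (0.74 ± 0.15, adjusted p = 0.0242). All 5 type VI genes that could be tested were among them. Col6a6 alone kept its call under every alternative run. The number called was 2 without fibrotic 1, 2 without fibrotic 2, 1 without the Hk2-deleted section and 14 without the healthy section. Col4a1 (0.44 ± 0.12, adjusted p = 0.0633) and Col18a1 (-0.31 ± 0.08, adjusted p = 0.0537) were not called.

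The difference between zones itself differed between the CCl4-treated and healthy sections for 11 of 24 genes. In 10 the pericentral to periportal ratio was higher after CCl4 and in 1 it was lower, against 9.51% and 11.4% of all genes. Col6a1 had 81.9 CPM pericentrally and 27.5 CPM periportally in the Hk2-deleted section, 88.1 and 34.1 CPM in fibrotic 1, 58.8 and 18.6 CPM in fibrotic 2, and 6.88 and 7.72 CPM in the healthy section. The difference of log2 ratios was 1.55 ± 0.20 (adjusted p = 0.00011). Col6a2 (1.59 ± 0.21), Col6a3 (1.38 ± 0.21), Col4a1 (0.73 ± 0.13), Col4a2 (0.66 ± 0.13), Col14a1 (0.73 ± 0.11) and Col16a1 (2.12 ± 0.45) were called with it, and these 7 were called under every alternative run.

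The one gene in the other direction was Col18a1. It had 276 CPM pericentrally and 303 CPM periportally in the Hk2-deleted section, 220 and 240 CPM in fibrotic 1, 219 and 248 CPM in fibrotic 2, and 193 and 186 CPM in the healthy section. The periportal side was higher in the 3 CCl4-treated sections and lower in the healthy one, with a difference of -0.34 ± 0.09 (adjusted p = 0.0173). That call was lost with DESeq2, with library size alone, without collagen-rich spots and without surface spots.

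Cell type markers and collagen-rich spots were also zoned after CCl4. In the same test of the difference, the pericentral to periportal ratio was higher after CCl4 for 7 of 7 stellate cell and 5 of 5 macrophage genes. The same held for 3 of 5 tested cholangiocyte, 3 of 8 portal fibroblast, 2 of 5 smooth muscle and 0 of 5 tested mesothelial genes. The summed stellate cell level was 899 CPM pericentrally and 378 CPM periportally in the Hk2-deleted section, 971 and 468 CPM in fibrotic 1, 997 and 361 CPM in fibrotic 2, and 482 and 450 CPM in the healthy section. The summed portal fibroblast level was 217 and 110 CPM in the Hk2-deleted section, 280 and 154 CPM in fibrotic 1, 148 and 65.9 CPM in fibrotic 2, and 28.1 and 34.5 CPM in the healthy section. Mesothelial genes had 48.8 and 9.49 CPM in the Hk2-deleted section, 28.9 and 11.0 CPM in fibrotic 1, 5.30 and 1.69 CPM in fibrotic 2, and 3.62 and 2.95 CPM in the healthy section. All 3 of these lists were higher pericentrally in each CCl4-treated section. Other lists were not: smooth muscle genes had 59.1 and 50.8 CPM in the Hk2-deleted section, 38.9 and 57.4 CPM in fibrotic 1, 21.2 and 26.6 CPM in fibrotic 2, and 13.3 and 30.7 CPM in the healthy section. Cholangiocyte genes had 58.3 and 48.4 CPM, 53.7 and 52.5 CPM, 26.8 and 40.9 CPM, and 6.37 and 26.7 CPM in that order. Of the collagen-rich spots, 71.2% in the Hk2-deleted section, 72.2% in fibrotic 1, 81.0% in fibrotic 2 and 40.5% in the healthy section fell in the pericentral part. Without the collagen-rich spots, type VI had 181 against 93.5 CPM, 249 against 121 CPM and 149 against 60.5 CPM in the CCl4-treated sections and 20.8 against 21.4 CPM in the healthy section. The pericentral excess was then smaller but present in each CCl4-treated section, and the part of the marker levels was not tested.

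Spots rich in fibrillar collagen carried most of these collagens at a raised level, while Col18a1 was lower there in the CCl4-treated sections. In each section, spots were ranked by the part of their UMIs that Col1a1, Col1a2 and Col3a1 supplied, and the top 10% were called collagen-rich. None of these 3 genes is among the 31 genes. Collagen-rich spots numbered 386 in the Hk2-deleted section, 413 in fibrotic 1, 258 in fibrotic 2 and 306 in the healthy section. Those of the healthy section reach down to 0.0167% of fibrillar UMIs, against 0.174%, 0.270% and 0.142% in the CCl4-treated sections in that order. They held 1191 UMIs of the 3 genes in all, against 28078, 31436 and 8054 in the CCl4-treated sections. The healthy ranking thus carries more counting error, and its folds are not a like measure to those of the other sections. In the 3 CCl4-treated sections, 20 of 26 genes tested were higher in collagen-rich than in other spots and 2 were lower, against 21.9% higher and 22.1% lower among all genes. The median log2 fold change was 1.29 over the 26 genes and 0.0098 over all genes. Of these 22 calls, 18 held under every alternative run, the exceptions being Col4a4, Col13a1, Col23a1 and Col5a3.

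Type VI had 558 CPM in collagen-rich and 128 CPM in other spots of the Hk2-deleted section, 579 and 189 CPM in fibrotic 1, 357 and 100.3 CPM in fibrotic 2, and 58.8 and 21.1 CPM in the healthy section. Every section was higher in its collagen-rich spots. All 5 type VI genes tested were called: Col6a5 (2.52 ± 0.24), Col6a6 (2.03 ± 0.20), Col6a2 (1.57 ± 0.08), Col6a1 (1.50 ± 0.07) and Col6a3 (1.44 ± 0.07), with adjusted p-values between 2.51e-08 and 3.56e-06. Col6a5 was the most concentrated of the class, with 55.0% of its UMIs in collagen-rich spots of the Hk2-deleted section, 34.0% in fibrotic 1 and 43.9% in fibrotic 2. The healthy section had 10 UMIs of Col6a5 in all.

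Type IV had 377 CPM in collagen-rich and 129.5 CPM in other spots of the Hk2-deleted section, 374 and 164 CPM in fibrotic 1, 242 and 121 CPM in fibrotic 2, and 65.3 and 43.2 CPM in the healthy section. Its ubiquitous chains rose by 0.98 ± 0.08 (Col4a1, adjusted p = 8.36e-07) and 0.87 ± 0.08 (Col4a2, adjusted p = 1.11e-06) in collagen-rich spots. Col4a6 rose by 2.21 ± 0.31 (adjusted p = 5.81e-05) and Col4a5 by 1.53 ± 0.17 (adjusted p = 8.73e-06). Col4a3, which had risen in whole fibrotic sections, had 0.17 ± 0.27 here and was not called. Its level was 2.09 CPM in collagen-rich and 2.63 CPM in other spots of the Hk2-deleted section, 5.81 and 3.47 CPM in fibrotic 1, 2.55 and 1.16 CPM in fibrotic 2, and 0.856 and 0.405 CPM in the healthy section, on 4 to 44 UMIs in the collagen-rich spots.

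Col18a1 had 236 CPM in collagen-rich and 302 CPM in other spots of the Hk2-deleted section, 196 and 233 CPM in fibrotic 1, 218 and 241 CPM in fibrotic 2, and 192 and 188 CPM in the healthy section. It was lower in collagen-rich spots of each CCl4-treated section, by -0.57 ± 0.06 on the log2 scale (adjusted p = 6.15e-06), and this call held under every alternative run. The all-gene median moves by 0.33 with library size alone. All 5 hepatocyte markers (Alb, Apoa1, Ttr, Serpina1c and Apob) were also called lower in collagen-rich spots, with a median of -0.62. So were 5 of 7 endothelial markers, while 1 was higher. The part of these markers in the Col18a1 difference was not tested. Col15a1, the other collagen of that zone that was tested, rose by 1.21 ± 0.11 (adjusted p = 1.11e-06).

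FACITs had 271 CPM in collagen-rich and 152 CPM in other spots of the Hk2-deleted section, 298 and 189 CPM in fibrotic 1, 283 and 165 CPM in fibrotic 2, and 116 and 78.8 CPM in the healthy section. Col14a1 rose by only 0.37 ± 0.05 (adjusted p = 9.23e-05), while Col12a1 rose by 1.77 ± 0.23 (adjusted p = 3.76e-05) and Col16a1 by 1.37 ± 0.17 (adjusted p = 2.74e-05). Transcripts of Col14a1 were spread widely, with a UMI in 86.9% of spots in the Hk2-deleted section, 87.7% in fibrotic 1, 85.9% in fibrotic 2 and 67.9% in the healthy section. Its collagen-rich spots held 14.8% of its UMIs in the Hk2-deleted section, 16.1% in fibrotic 1, 13.8% in fibrotic 2 and 12.2% in the healthy section.

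The short-chain genes rose as well, Col8a2 by 2.34 ± 0.36 (adjusted p = 0.000126) and Col8a1 by 1.56 ± 0.21 (adjusted p = 3.81e-05). Col27a1, level between whole sections, rose by 1.06 ± 0.09 in collagen-rich spots (adjusted p = 8.29e-07). It had 37.1 CPM in collagen-rich and 13.0 CPM in other spots of the Hk2-deleted section, 30.3 and 12.9 CPM in fibrotic 1, 25.5 and 9.80 CPM in fibrotic 2, and 13.5 and 11.5 CPM in the healthy section. Col28a1, a collagen related to type VI, rose by 1.84 ± 0.40 (adjusted p = 0.0021) on 1 to 14 UMIs in the collagen-rich spots of a section. After scaling, Col13a1 was lower (-0.38 ± 0.12, adjusted p = 0.0164). This call was lost with DESeq2, with library size alone, without surface spots, without fibrotic 1 and without the Hk2-deleted section. In raw CPM only 1 of the 31 genes, Col18a1, was lower in all 3 CCl4-treated sections. The summed transmembrane genes, mostly Col13a1, had 14.0 CPM in collagen-rich and 12.8 CPM in other spots of the Hk2-deleted section. They had 16.7 and 16.3 CPM in fibrotic 1 and 12.2 and 10.8 CPM in fibrotic 2.

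Partner genes rose in the same spots. Of the basement membrane partners, 12 of 17 rose and none fell, among them the laminin chains Lama2 (1.02 ± 0.11) and Lamc3 (0.95 ± 0.24). Of the synthesis genes, 17 of 28 rose and 4 fell, led by the prolyl hydroxylase subunit P4ha3 (2.54 ± 0.46), Lox (2.33 ± 0.37) and Loxl1 (1.94 ± 0.13). Of 12 receptors tested, 8 rose and none fell, led by the integrin chain Itga11 (1.96 ± 0.29), Mrc2 (1.61 ± 0.08) and Antxr1 (1.45 ± 0.14).

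Collagen-rich spots also differed in their cells. Called higher there were 7 of 7 stellate cell, 7 of 8 portal fibroblast, 5 of 5 smooth muscle, 5 of 5 tested mesothelial, 3 of 5 tested cholangiocyte and 2 of 5 macrophage markers, while 1 of 7 endothelial markers was higher and 5 were lower. Summed mesothelial markers had 128 CPM in collagen-rich and 11.9 CPM in other spots of the Hk2-deleted section, 62.2 and 12.5 CPM in fibrotic 1, 10.2 and 2.43 CPM in fibrotic 2, and 10.9 and 2.86 CPM in the healthy section. Of the 6 mesothelial genes, Upk3b, Lrrn4, Bnc1 and Upk1b were at 0 in the collagen-rich spots of fibrotic 2. Surface spots made up 66.1% of the collagen-rich spots in the Hk2-deleted section, 49.2% in fibrotic 1, 2.33% in fibrotic 2 and 12.4% in the healthy section.

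The classes differed between surface and inner collagen-rich spots. Type IV had 425 CPM in surface and 266 CPM in inner collagen-rich spots of the Hk2-deleted section, and 419 and 322 CPM in fibrotic 1. Type VI had 589 and 486 CPM in the Hk2-deleted section and 629 and 521 CPM in fibrotic 1. FACITs ran the other way, with 247 and 326 CPM in the Hk2-deleted section and 288 and 310 CPM in fibrotic 1. Fibrotic 2 had only 6 surface spots among its collagen-rich ones, where type IV was 249 CPM against 242 CPM in inner ones. Inner collagen-rich spots still held more type IV and type VI than other spots in each CCl4-treated section, at 266, 322 and 242 CPM of type IV against 129.5, 164 and 121 CPM in other spots. Mesothelial markers summed to 177 CPM in surface and 15.0 CPM in inner collagen-rich spots of the Hk2-deleted section, and to 106 and 10.9 CPM in fibrotic 1. That list holds Msln and Upk3b, which define surface spots and are absent from inner spots by definition. The mesothelial contrast was therefore in part set in advance. Cholangiocyte markers had 162 and 68.7 CPM in the Hk2-deleted section and 133 and 77.3 CPM in fibrotic 1. Smooth muscle markers ran the other way, with 155 and 201 CPM in the Hk2-deleted section and 67.0 and 160 CPM in fibrotic 1. These are sums over spots of 1 section each, with no test, and the part of the markers was not tested.

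**Figure D4:**
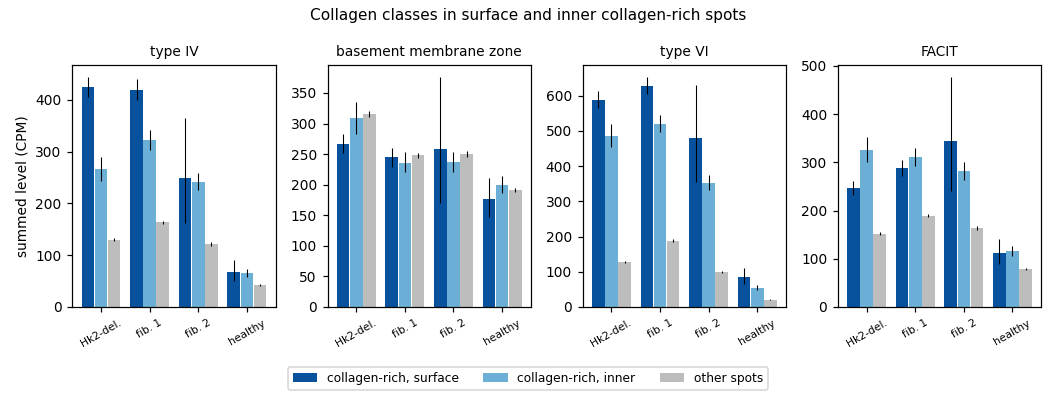
Summed level of 4 collagen classes (CPM, bars from 0, with 95% Poisson intervals) in surface collagen-rich, inner collagen-rich and other spots of each section. In the Hk2-deleted section and fibrotic 1, type IV is higher in surface than in inner collagen-rich spots (425 against 266 and 419 against 322 CPM). FACITs are lower in the surface ones (247 against 326 and 288 against 310 CPM), with overlapping intervals in fibrotic 1. Fibrotic 2 has 6 such surface spots.

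Levels were lower farther from collagen-rich spots, counted in steps on the spot grid. In the Hk2-deleted section type VI had 558 CPM in the rich spots, 189 CPM at 1 step, 137 CPM at 2, 127 CPM at 3, 111 CPM at 4 and 93.7 CPM at 5 or more steps. In fibrotic 1 it had 579 CPM in the rich spots, 234 CPM at 1 step and 148 CPM at 5 or more, and in fibrotic 2 it had 357, 128 and 79.1 CPM at those distances. The healthy section had 58.8, 28.3 and 16.2 CPM. Most of the drop came in the first step, which was 2.95-fold in the Hk2-deleted section, 2.48-fold in fibrotic 1, 2.78-fold in fibrotic 2 and 2.08-fold in the healthy section.

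The drop of type IV over the first step was smaller, at 2.36-fold in the Hk2-deleted section, 1.98-fold in fibrotic 1, 1.76-fold in fibrotic 2 and 1.32-fold in the healthy section. FACITs dropped by 1.48, 1.42 and 1.40-fold in the CCl4-treated sections and by 1.22-fold in the healthy section. Type VI and type IV declined over 5 of 5 steps in each CCl4-treated section. The basement membrane zone genes ran slightly the other way, with 5 or more steps at 1.18, 1.10 and 1.10 times the rich spots in the CCl4-treated sections and 1.08 times in the healthy section. Cell type markers did not all go the same way from the rich spots to 5 or more steps. Hepatocyte markers had 85079 and 102523 CPM in the Hk2-deleted section, 130810 and 164262 CPM in fibrotic 1, 118847 and 142450 CPM in fibrotic 2, and 182555 and 175403 CPM in the healthy section. Endothelial markers had 665 and 709 CPM, 693 and 791 CPM, 809 and 601 CPM, and 695 and 458 CPM in that order. Portal fibroblast, stellate cell, mesothelial, cholangiocyte, smooth muscle and macrophage markers were lower in each section. Mesothelial markers had 128 and 3.59 CPM in the Hk2-deleted section and 62.2 and 6.84 CPM in fibrotic 1. They had 10.2 and 1.41 CPM in fibrotic 2 and 10.9 and 1.33 CPM in the healthy section. Surface spots made up 66.1% of the rich spots in the Hk2-deleted section and 49.2% in fibrotic 1. Distance from rich spots and distance from the surface were not separated there. Portal fibroblast markers summed to 545 CPM in the rich spots, 166 CPM at 1 step and 84.3 CPM at 5 or more in the Hk2-deleted section, 566, 216 and 136 CPM in fibrotic 1, 311, 98.1 and 72.6 CPM in fibrotic 2, and 82.2, 32.7 and 14.6 CPM in the healthy section. Stellate cell markers had 1029, 720 and 453 CPM at those distances in the Hk2-deleted section, 1131, 805 and 610 CPM in fibrotic 1, 1243, 784 and 399 CPM in fibrotic 2, and 586, 550 and 327 CPM in the healthy section. Their part in the decline was not tested.

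**Figure D5:**
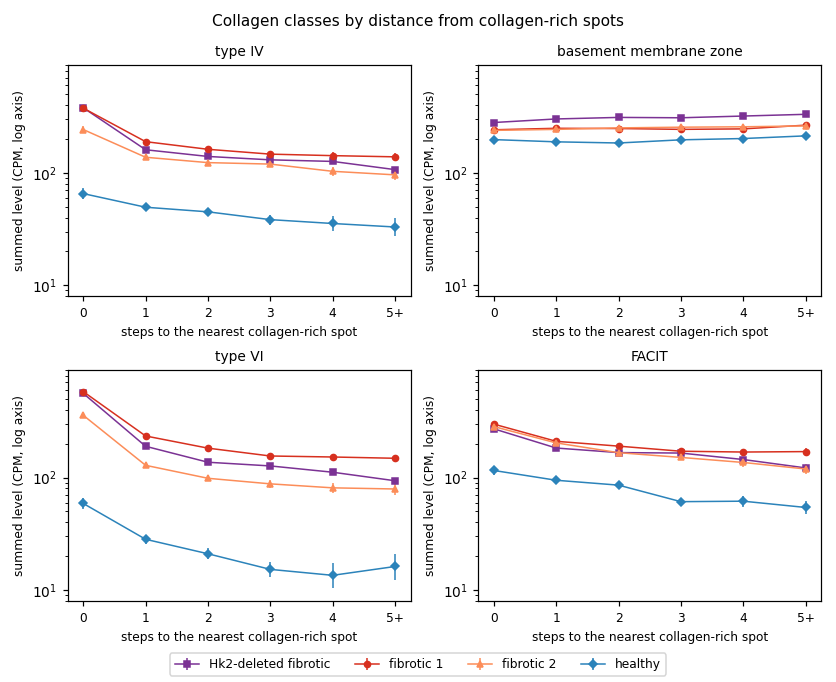
Summed level of 4 collagen classes (CPM, log axis, with 95% Poisson intervals) by steps to the nearest collagen-rich spot, where 0 is the rich spots themselves and 5+ is 5 or more steps. Type VI drops most over the first step (558 to 189 CPM in the Hk2-deleted section), type IV and FACITs less, and the basement membrane zone stays nearly level.

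For type VI, the relation held through the full range of fibrillar content in the CCl4-treated sections. With the spots of a section cut into 10 equal bins by the same ranking, type VI was higher in each bin than in the one before in all 3 CCl4-treated sections. In the healthy section type VI rose in 5 of 9 steps and fell in 4. Its first and second bins both had 0 CPM of the 3 fibrillar genes, so the ranking does not separate them. The healthy folds below are thus not a like measure. The highest over the lowest bin was 10.9-fold in the Hk2-deleted section, 7.50-fold in fibrotic 1, 8.90-fold in fibrotic 2 and 2.88-fold in the healthy section. For type IV it was 4.52-fold, 3.72-fold and 3.19-fold in the CCl4-treated sections and 1.73-fold in the healthy section. For FACITs it was 3.47-fold, 2.70-fold and 3.13-fold in the CCl4-treated sections and 1.55-fold in the healthy section. The basement membrane zone genes had 0.827, 0.996 and 0.913 in the CCl4-treated sections and 1.06 in the healthy section.

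A spot kind by genotype term asked whether the collagen-rich excess differed with Hk2 deletion. It was larger in the Hk2-deleted section for 2 of 26 genes and smaller for none, against 0.722% and 0.0759% of all genes. Col4a1 had 169 CPM in collagen-rich and 55.0 CPM in other spots of the Hk2-deleted section, against 171 and 74.0 CPM in fibrotic 1 and 107 and 52.6 CPM in fibrotic 2. Col6a2 had 190 and 41.6 CPM in the Hk2-deleted section, against 177 and 57.0 CPM in fibrotic 1 and 110 and 30.9 CPM in fibrotic 2. The difference of log2 ratios was 0.43 ± 0.10 for Col4a1 and 0.44 ± 0.10 for Col6a2 (adjusted p = 0.0201 each). Without surface spots it was 0.02 for Col4a1 and 0.15 for Col6a2, neither called, and both calls were also lost with DESeq2 and with the top 5% of spots.

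A like term asked whether that excess differed between the CCl4-treated and the healthy sections. It was larger after CCl4 for Col27a1, the only one of 25 genes called (0.97 ± 0.20, adjusted p = 0.0453), against 0.1% of all genes called larger and 0.901% smaller. Without surface spots Col27a1 had 0.74 with an adjusted p of 0.0905, and without fibrotic 2 it had 0.97 with an adjusted p of 0.0525. For Col6a1 the term was 0.19 (interval -0.29 to 0.66) and for Col18a1 -0.47 (interval -0.74 to -0.20, adjusted p = 0.0966).

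A spatial score was deposited for each gene. In the authors' deposited table, Moran's I (a measure of how alike neighbouring spots are) of Col14a1 was 0.158 in the Hk2-deleted section, 0.120 in fibrotic 1, 0.140 in fibrotic 2 and 0.117 in the healthy section. These values lay at the 98.6th to 99.0th percentile of the listed genes of their section. Col6a2 had 0.146, 0.102 and 0.086 in the CCl4-treated sections and 0.026 in the healthy section in the authors' deposited table. Col4a1 had 0.075, 0.068 and 0.018 in the CCl4-treated sections and 0.018 in the healthy section there. Moran's I depends on depth and level, so that an order between genes also carries their abundance.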

How the data were processed

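The deposited matrices hold UMI counts per gene and spot, written by Space Ranger 2.0.0 per the file headers. The submitters' processing notes name mm10 as the genome. The deposited tables of Moran's I, a spatial score, were copied without change. Counts were summed over whole sections or spot sets, since spots are not replicates, and tested with edgeR 4.0.16 in R 4.3.3 (TMM scaling, filterByExpr, quasi-likelihood test, Benjamini-Hochberg over all genes, threshold 0.05). DESeq2 1.42.0 was an alternative. Zone and collagen fits had section as a block. Whole-section fits have 1 residual degree of freedom, so single sections were assumed to vary like the fibrotic pair. Zone scores used log2(CPM + 1) within a section. CPM values are raw, with exact 95% Poisson intervals that cover counting error only. The fits were tested on simulated data. Genes, classes and lists were chosen with earlier results of these data known. Any gene of the rule with 20 or more UMIs could be named, with folds for called genes and the most abundant of each class, and up to 3 called genes per partner list. Separate mice were named by the design text. The sections shared 1710 spot barcodes, which are array positions. Images were not used here.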

Additional observations from a re-analysis of the deposited data

Results flagged for a closer look

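The zone difference (pericentral over periportal) differed between the CCl4-treated and the healthy sections, by a test of that difference, for 11 genes. On the log2 scale the difference of zone ratios was 1.55 for Col6a1, 1.59 for Col6a2, 1.38 for Col6a3, 0.729 for Col4a1, 0.659 for Col4a2, 0.728 for Col14a1, 2.12 for Col16a1, 1.35 for Col15a1, 0.742 for Col27a1 and -0.34 for Col18a1. The fitted 7.27 for Col5a3 is no bound, since the healthy section had 0 UMIs pericentrally and 12 periportally, against 32 and 16 in the Hk2-deleted section, 32 and 19 in fibrotic 1 and 6 and 2 in fibrotic 2. The healthy section is 1 library, so the difference rests on it.

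The collagen-rich excess was larger in the Hk2-deleted section than in the fibrotic pair for Col4a1 (0.435) and Col6a2 (0.441), by the test of that difference. Surface spots made up 66.1% of the collagen-rich spots of the Hk2-deleted section, against 49.2% in fibrotic 1 and 2.33% in fibrotic 2, and without surface spots the values were 0.02 for Col4a1 and 0.15 for Col6a2. The same excess was larger in the CCl4-treated than in the healthy section for Col27a1 (0.965).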

How the results depend on the processing

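Of the values of single genes under the alternatives, 594 were counted as the same, 63 lost the call, 19 gained one, 24 reversed and 19 untested values moved by more than their error. Tested values counted as the same kept their direction and their side of the threshold. Untested ones lay within the error of the main value and, for genes not called, could differ in sign. For fibrotic against healthy sections, 11 of 16 calls held in every alternative run, and 1 gene, Col13a1, was called lower in place of none with no filter on low counts, with all 3 CCl4-treated sections as one group and with fibrotic 2 and the Hk2-deleted section as the CCl4 group, a grouping chosen after seeing the data. For zones, 12 genes were higher with library size alone and 11 with no filter, and 1 was lower with DESeq2, with no filter and with narrower outer zones. Leaving out a section gave 1 to 14 genes higher (1 without the Hk2-deleted section, 2 without either fibrotic section and 14 without the healthy one) and 0 to 2 lower. The gene called lower was Col18a1, joined by Col4a3 without the healthy section. The one lower call of the zone difference by CCl4 became 0 with DESeq2, with library size alone, without collagen-rich spots and without surface spots. Of the 2 genes lower in collagen-rich spots, 1 stayed with DESeq2, with library size alone and without surface spots, and leaving out a section gave 1 to 2. The collagen-rich difference by genotype called 5 genes with library size alone, 4 with no filter, and 0 with DESeq2, with the top 5% of spots and without surface spots. The collagen-rich difference by CCl4 called 0 higher with DESeq2, with the top 5% of spots and without surface spots, and 2 with no filter. It called 1 lower (Col18a1) with DESeq2 and with no filter, and leaving out a section gave 0 to 2 higher and 0 to 1 lower. The causes were not tested.

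Among reversed values, Col18a1 in fibrotic against healthy sections had 0.31 with library size alone, 0.0849 with all CCl4-treated sections as one group and 0.19 with fibrotic 2 and the Hk2-deleted section, and Col27a1 had 0.15 with library size alone. Col28a1 in the Hk2 contrast had 0.21 without surface spots. Between zones, Col8a1 had -0.0839 with DESeq2, -0.51 without collagen-rich spots, -0.19 without surface spots and -0.17 to 0.157 leaving out a section (reversed without fibrotic 1 and without the Hk2-deleted section). Col13a1 had 0.17 with library size alone, 0.019 without collagen-rich spots, 0.0476 without surface spots and -0.104 to 0.0299 leaving out a section (reversed without fibrotic 1), and 0.0029 in the zone difference by CCl4 with library size alone. In the genotype term, Col14a1 had -0.0523 with the top 5% of spots, and without surface spots Col4a2 had -0.14, Col18a1 0.0703 and Col13a1 0.11. In the CCl4 term, Col14a1 had 0.14 with library size alone and 0.0618 without surface spots, Col13a1 0.047 with the top 5% of spots, and Col8a1 -0.10 without surface spots and -0.079 to 0.364 leaving out a section (reversed without the Hk2-deleted section).

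With library size alone, the median of all genes moved by 0.34 (fibrotic against healthy), 0.21 (zones), 0.15 (zone difference), 0.33 (collagen-rich spots) and 0.17 (collagen-rich difference by CCl4). Calls over all genes, without those that define zones or collagen-rich spots, split into 1877 higher and 206 lower in place of 1362 and 567 for fibrotic against healthy sections, 3911 and 347 in place of 741 and 648 for zones, 1755 and 585 in place of 1205 and 1439 for the zone difference, and 7310 and 685 in place of 2881 and 2915 for collagen-rich spots. The whole-section fits without a fibrotic section, and the genotype term likewise, have no residual degree of freedom and give values with no test. No paired analysis was possible because only the fibrotic sections carry replicate numbers in the labels, while the zone and collagen fits already have section as a block. Depth limits the comparisons with the healthy section, where 13 of 31 genes had fewer than 20 UMIs.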
